A study of Mus musculus with 8 samples.

Results

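The nuclear-encoded subunits of the oxidative phosphorylation enzymes were followed in mouse bone marrow cells of 2 Trerf1 genotypes. Members were the gene identifiers whose symbol starts with Nduf, Sdh (a to d), Uqcr, Cox4 to Cox8 or Atp5 and whose type is protein-coding, without the Ndufaf assembly factors. Of 53647 identifiers in the count tables, 86 met the rule, under 85 symbols, because Atp5o has a second identifier. By symbol prefix they comprised 38 genes of complex I, 4 of complex II, 8 of complex III, 18 of complex IV and 18 of complex V. Cox7a2l and Atp5s, which the rule placed in complexes IV and V, were taken as non-subunits in an alternative. Another 21 symbols with these prefixes were left out, 8 as Ndufaf factors and 13 as pseudogenes or other types.

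RNA was sequenced from bone marrow cells sorted as lineage-negative (Lin-) and positive for CD127, the alpha chain of the receptor for interleukin 7, found on early lymphoid cells. The 4 WT libraries were labelled Trerf1 +/+ and the 4 KO libraries Tref1 -/-, read here as homozygous loss of Trerf1, which encodes a zinc finger transcriptional regulator. The sources used here do not give which part of the gene the allele lacks, whether it was deleted in all tissues, or the age of the mice. They also do not say whether the 8 libraries are separate animals, so a p here reflects the variation among 8 libraries, which may in part be technical.

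As background, complexes I to IV form the respiratory chain of the inner mitochondrial membrane, pass electrons from NADH or succinate to oxygen, and, except for complex II, pump protons. Complex V, the ATP synthase, uses the proton gradient to make ATP. Nuclear and mitochondrial genes both supply subunits, apart from complex II, which is all nuclear, and each nuclear subunit is made in the cytosol and imported. Early lymphoid cells depend on respiration as well as glycolysis, and interleukin 7 signalling is known to act on their metabolism.

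Counts per library summed to between 31109744 and 73414626, with WT2, WT4 and KO4 the deeper ones. Trerf1 itself stood at 29.0, 32.1, 27.1 and 22.3 CPM (counts scaled to a common library size with TMM factors) in WT1 to WT4, and at 13.4, 12.8, 12.1 and 22.1 CPM in KO1 to KO4. The library labelled KO4 therefore lay just below WT4 and well above the other KO libraries. Whether its label is right was not tested, and a comparison without WT4 and KO4 is given below. The gate gene Il7r, which encodes CD127, was at 324 ± 46.8 CPM in WT and 354 ± 45.8 CPM in KO (SD, n = 4 each). The male-specific Ddx3y reached 82.9 to 102 CPM in 3 libraries, WT2, WT3 and KO2, and no other library exceeded 0.112 CPM. The sexes were thus mixed within both groups, and neither group came from a single animal.

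The subunit genes were abundant transcripts. Their median level over the 80 that passed the count filter was 342 TPM (the RSEM level corrected for transcript length and library size), against 10.1 TPM over all 16352 genes tested. Of the 86 members, 67 (77.9%) lay among the 1000 genes with the highest TPM, a class that took in 6.96% of the 14375 genes at 1 TPM or more. Together the members held 28156 ± 1057 TPM in WT and 29102 ± 1043 TPM in KO (SD, n = 4 each). The level depended on the subunit: among the tested genes of complex I, TPM ranged from 79.8 for Ndufb4, an accessory subunit of the membrane arm, to 535 for Ndufa4, which structural work has since placed in complex IV. In complex III the range was 145 (Uqcrc2) to 518 TPM (Uqcrh, the hinge protein).

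The highest member by TPM was Cox6a2, at 1184 TPM, followed by Cox4i1, at 1084 TPM, and Atp5b, at 1067 TPM. Cox4i1 encodes the widely expressed form of the largest nuclear subunit of cytochrome c oxidase, and Atp5b the catalytic beta subunit of ATP synthase. Cox6a2 is the form of subunit VIa known from heart and skeletal muscle. The plot of subunit levels by complex shows the spread within each enzyme.

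**Figure D1:**
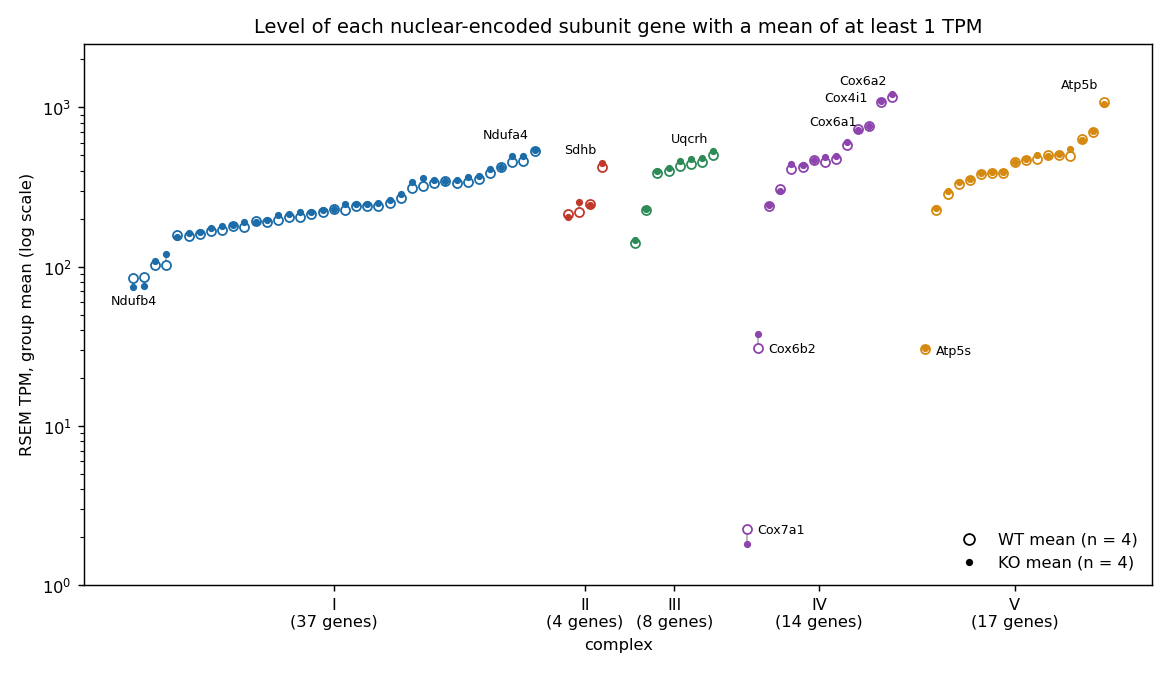
Each point is 1 gene with a mean of at least 1 TPM, ordered by level within complexes I to V, with the WT mean (open circle) and KO mean (filled circle) of 4 libraries each on a log scale of RSEM TPM. Most genes lie between 79.8 and 1184 TPM with the group means close together, and Cox6b2 (34.4 TPM), Atp5s (30.6 TPM) and Cox7a1 (2.04 TPM) fall below the rest.

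Promoters of the members were searched for motifs of factors known to act on respiratory genes, because these genes are often described as a unit under shared regulators. Of the 85 symbols, 67 were matched in the RefSeq promoter table of build GRCm38.p6, and the 250 bases before each annotated start were read on both strands. The NRF1 motif, GCGCA followed by any base and then GCGC, occurred in 13 of 67 members (19.4%) and in 4.23% of the 27025 genes of the table. For complexes I to V it was found in 6 of 33, 2 of 3, 0 of 5, 1 of 13 and 4 of 13 members. The ETS motif CCGGAAG, of the family that includes GABPA, occurred in 12 members (17.9%) and in 7.83% of all genes. The YY1 motif AAGATGGCG occurred in 1 member (1.49%) and in 0.71% of all genes. At least 1 of these was present in 22 members (32.8%), against 11.8% of all genes. The genes of the table were not matched to the members in level or base composition, so these shares are a description only. The NRF1 motif reads alike on both strands where the 2 middle bases are AT, and such a place was counted once.

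The stretches below run from 10 bases before the farthest match to the last base before the annotated start, 5′ to 3′ on the gene's strand, with every NRF1 or ETS match in capitals. Ndufb4, Sdha and Cox6a1 are shown as the members with 3 matches, and Sdhd as the member with the smallest p in the genotype comparison. Their places in GRCm38.p6 are chr16:37654369-37654569, chr13:74350241-74350348, chr5:115348959-115349130 and chr9:50603850-50603938, all on the minus strand.
Ndufb4: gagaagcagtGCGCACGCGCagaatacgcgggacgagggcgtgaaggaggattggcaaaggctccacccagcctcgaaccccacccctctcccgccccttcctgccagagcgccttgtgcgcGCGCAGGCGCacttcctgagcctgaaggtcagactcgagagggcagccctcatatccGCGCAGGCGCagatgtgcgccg
Sdha: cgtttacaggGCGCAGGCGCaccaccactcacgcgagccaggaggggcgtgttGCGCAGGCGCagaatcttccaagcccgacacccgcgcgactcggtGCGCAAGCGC
Cox6a1: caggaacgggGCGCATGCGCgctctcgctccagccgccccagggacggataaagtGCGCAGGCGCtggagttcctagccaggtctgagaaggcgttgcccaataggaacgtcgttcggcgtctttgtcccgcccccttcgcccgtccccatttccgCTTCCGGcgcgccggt
Sdhd: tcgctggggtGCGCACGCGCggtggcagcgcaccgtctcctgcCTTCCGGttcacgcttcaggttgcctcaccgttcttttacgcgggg
Ndufb4 and Sdha each held 3 NRF1 matches, Cox6a1 held 2 NRF1 matches and 1 ETS match on the reverse strand, and Sdhd held 1 of each. A match is a stretch of letters and not a measured binding site.

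Between genotypes, the members showed small estimates that lay mostly on the KO side. Of the 80 tested members, 75 had an estimate above 0 for KO against WT, where 51.7% of all tested genes did; with scaling by library size alone it was 72 of 80 beside 44.8%, and Ndufs1, Atp5a1 and Atp5g3 were then below 0. Their median log2 fold change was 0.105, against 0.007 for all tested genes, and single members ranged from -0.08 (Cox7a1) to 0.26 (Cox6b2). The medians by enzyme were 0.114 for complex I, 0.079 for complex II, 0.114 for complex III, 0.133 for complex IV and 0.069 for complex V. Single libraries moved them by over 1.5 times: without WT2 complexes I, III and V were at 0.045, 0.050 and 0.041, and without KO2 complexes IV and V were at 0.067 and 0.044. Without the library labelled KO4, complexes II and V were at 0.123 and 0.108.

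None of the 80 members passed the threshold of 0.05 under edgeR (quasi-likelihood F test, Benjamini-Hochberg adjusted p = 0.999 for each), and no gene of the whole table did (0.0% in either direction). Trerf1 itself was not called, at a log2 fold change of -0.87 ± 0.20 (unadjusted p = 0.00151, adjusted p = 0.999 in edgeR). A member without a call is thus not shown to be unchanged. At an unadjusted p under 0.05 there were 322 genes in edgeR (1.97% of those tested), 565 in DESeq2 and 891 in limma-voom. DESeq2 and limma-voom also called 0 genes. By the same unadjusted limit 2 members were counted in edgeR, Ndufs4 and Sdhd, both with a higher estimate in KO, beside 1.04% of all genes higher and 0.93% lower. Only Ndufs4 had every KO library above every WT library, which held for 0.74% of all genes, and no member had every KO library below every WT library, which held for 0.544%. In 20 other members 3 of the 4 KO libraries lay above every WT library, and in 14 none did. The same counts were not taken over all tested genes, so these numbers cannot be set against the whole table.

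**Figure D2:**
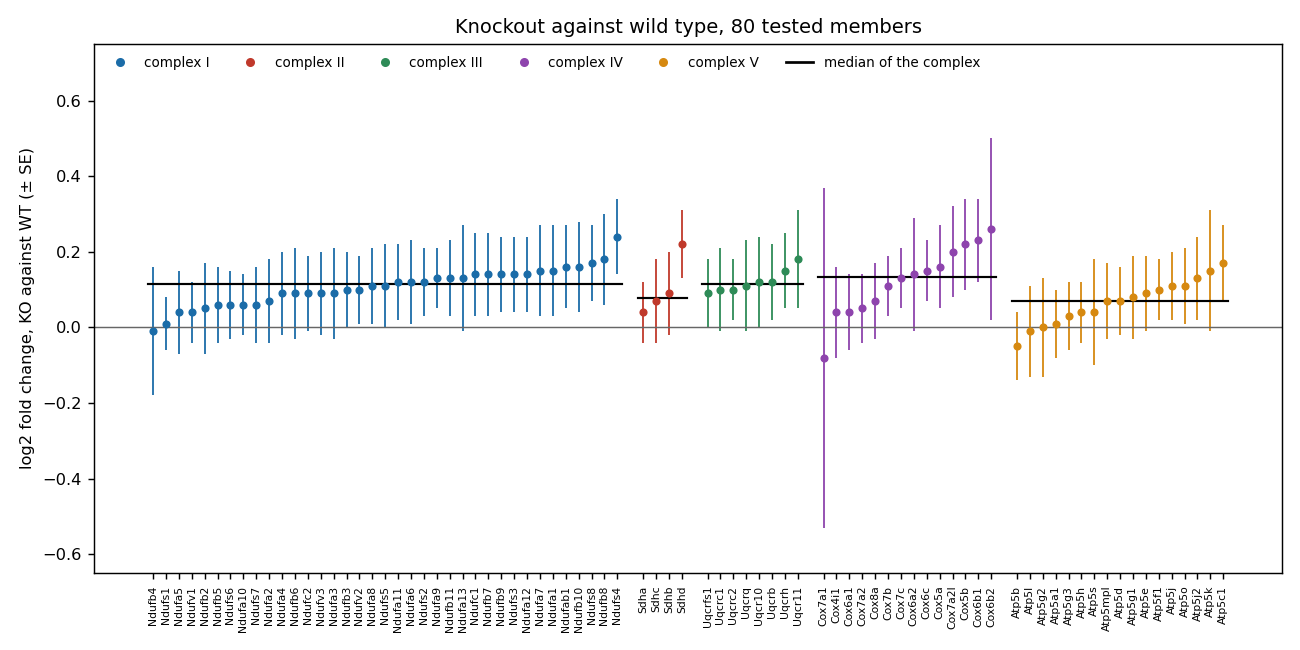
Log2 fold change of KO against WT with its standard error for each of the 80 tested members, by complex, from the edgeR fit of 4 WT and 4 KO libraries. Black bars are the medians of the complexes. The estimates run from -0.08 to 0.26, 75 lie above 0, and Cox7a1, with 14 to 37 counts per library, has the widest error.

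The level of the members as a set differed between libraries of the same genotype. The median deviation of the 80 members from their own mean over the 8 libraries, in log2 CPM, was -0.039, -0.199, 0.007 and 0.019 in WT1 to WT4. In KO1 to KO4 it was 0.018, 0.148, 0.105 and -0.073. WT2 was thus the low library and KO2 and KO3 the high ones, the library labelled KO4 lay below 3 of the 4 WT libraries, and the groups overlapped. Over all tested genes the same median stayed between -0.005 and 0.024.

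Counted gene by gene, WT2 was the lowest of the 8 libraries for 51 members and the library labelled KO4 for 19, while KO2 was the highest for 36 and KO3 for 25. In KO2, 77 of 80 members were above their own mean, and in WT2 only 8 were. The share of all counts that fell on the 86 members ran from 1.35% to 1.51% in WT and from 1.376% to 1.574% in KO. These ranges overlap as well.

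**Figure D3:**
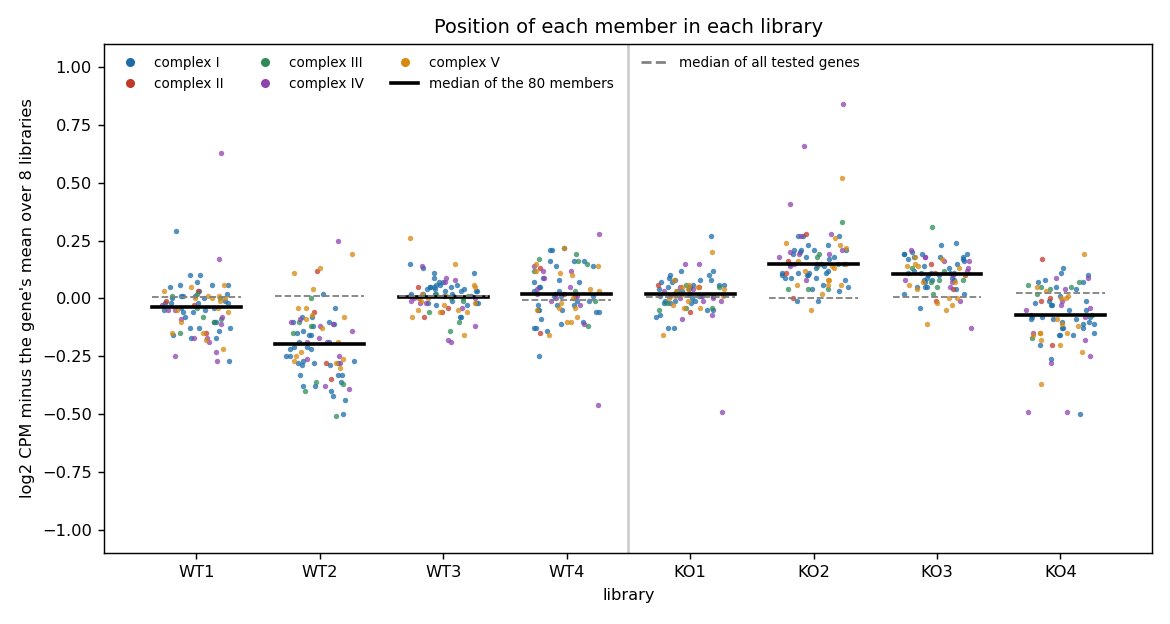
Deviation of the members' log2 CPM from each gene's mean over the 8 libraries, by library. Each point is 1 of the 80 tested members, coloured by complex, the black bar is their median and the dashed line the median of all tested genes. The members' median of the members is lowest in WT2 (-0.199) and highest in KO2 (0.148), and the library labelled KO4 (-0.073) lies among the WT libraries.

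The median log2 fold change of the members rested in part on those libraries. It was 0.046 without WT2, with 65 of 80 members above 0, and 0.068 without KO2, with 67 of 81. Leaving out WT4 together with the library labelled KO4 gave 0.165, with 78 of 80 above 0, and 12 genes of the whole table then passed the threshold, none of them a member. With RSEM expected counts in place of the gene counts the median was 0.052, with 67 of 79 above 0. The estimate stayed above 0 under all 19 alternatives run, and its size changed by over 1.5 times in the 4 just named.

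**Figure D4:**
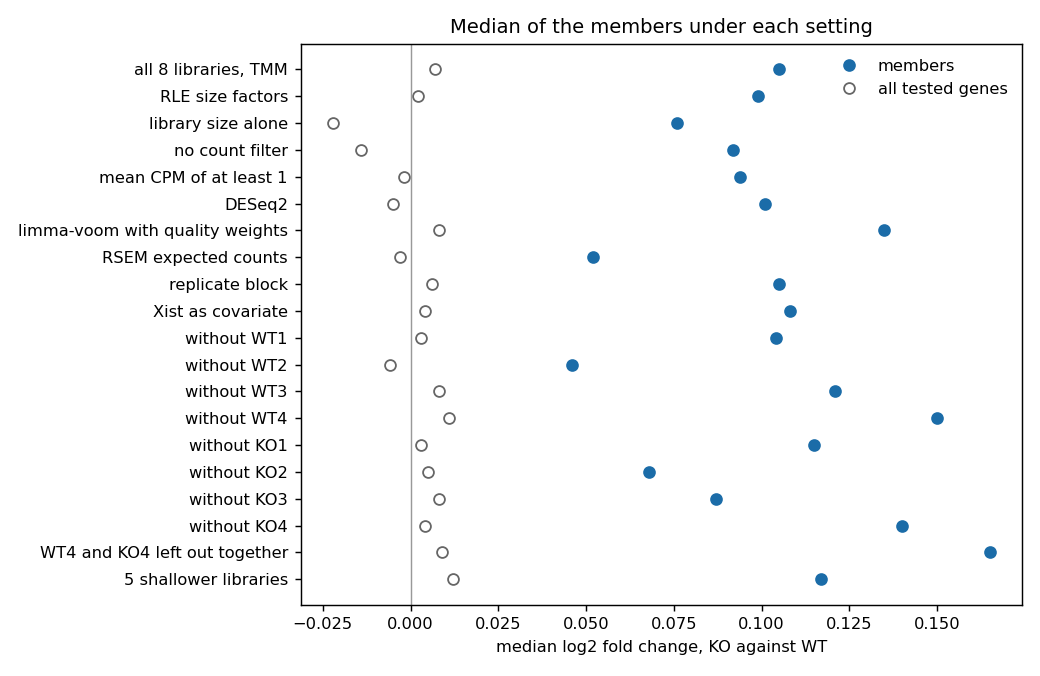
Median log2 fold change of KO against WT over the tested members and over all tested genes under each alternative. The members' median lies between 0.046 (without WT2) and 0.165 (WT4 and KO4 left out together), and the median of all genes stays near 0.

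In complex I, NADH dehydrogenase, 36 of 37 tested members had an estimate above 0 and 1 passed the unadjusted limit. Ndufs4 encodes an accessory subunit of the matrix arm whose loss in mice causes a Leigh-like brain disease. The gene lies at chr13:114424331-114524794 on the minus strand (GRCm39). Its level was 45.9, 45.2, 57.4 and 56.2 CPM in WT1 to WT4 and 59.3, 61.6, 62.1 and 58.5 CPM in KO1 to KO4. The KO libraries were close together and lay just above WT3 and WT4 and well above WT1 and WT2. The log2 fold change was 0.24 ± 0.10 (SE, unadjusted p = 0.0435, adjusted p = 0.999 in edgeR).

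Ndufs8, an iron-sulfur subunit near the quinone site, was at 184, 156, 186 and 217 CPM in WT1 to WT4 and 201, 224, 207 and 207 CPM in KO1 to KO4. WT2 was the low library, WT4 lay within the KO range, and the log2 fold change was 0.17 ± 0.10. Of the core subunits of the first electron steps, Ndufs1 and Ndufv1 had estimates closer to 0, while Ndufv2 had a log2 fold change of 0.10 ± 0.09. Ndufs1, the largest subunit with several iron-sulfur clusters, ranged from 112 to 119 CPM in WT and from 113 to 119.9 CPM in KO, with a log2 fold change of 0.01 ± 0.07. Ndufv1, which binds NADH and the flavin, was at 167, 154, 169 and 167 CPM in WT1 to WT4 and 173, 173, 179 and 152 CPM in KO1 to KO4. Both the lowest WT library and the lowest KO library were far from their groups, and the log2 fold change was 0.04 ± 0.08.

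Ndufa2, an accessory subunit of the matrix arm with the highest count per kilobase in complex I, was at 141 ± 20.9 CPM in WT and 149 ± 12.8 CPM in KO (SD, n = 4 each; log2 fold change 0.07 ± 0.11). The X-linked membrane-arm subunits Ndufa1 and Ndufb11 had log2 fold changes of 0.15 ± 0.12 and 0.13 ± 0.10. Ndufb4 was the only tested complex I member with an estimate below 0, at -0.01 ± 0.17. It was at 30.7, 23.8, 24.7 and 22.8 CPM in WT1 to WT4 and 30.3, 25.6, 27.9 and 17.7 CPM in KO1 to KO4, with the library labelled KO4 lowest. Its counts relative to the RSEM estimate were 0.634 times the ratio over all genes, so reads shared with other loci make its count uncertain.

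Complex II, succinate dehydrogenase, links the tricarboxylic acid cycle to the chain, and all 4 of its genes had an estimate above 0. Sdhd (chr9:50507657-50515112, minus strand, GRCm39) encodes a membrane anchor that takes part in quinone binding, and its promoter is the last of those printed above. Its level was 194, 177, 209 and 219 CPM in WT1 to WT4 and 217, 241, 232 and 242 CPM in KO1 to KO4. Only KO1 overlapped the WT range, by lying below WT4, and the log2 fold change was 0.22 ± 0.09 (unadjusted p = 0.0328, adjusted p = 0.999 in edgeR). The other membrane anchor, Sdhc, had a log2 fold change of 0.07 ± 0.11, and the catalytic subunits were also closer between groups than Sdhd. Sdha, the flavoprotein, was at 492 ± 16.8 CPM in WT and 505 ± 9.47 CPM in KO, and Sdhb, the iron-sulfur subunit, at 363 ± 50.2 and 387 ± 25.1 CPM (SD, n = 4 each). Their log2 fold changes were 0.04 ± 0.08 and 0.09 ± 0.11.

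In complex III, cytochrome bc1, all 8 tested members had an estimate above 0, from 0.09 to 0.18, and none reached the unadjusted limit. Uqcr11, a small accessory subunit, was at 119.8, 88.6, 127 and 144 CPM in WT1 to WT4 and 127, 145, 139 and 133 CPM in KO1 to KO4. WT2 stood well below the other libraries, and the log2 fold change was 0.18 ± 0.13. The hinge gene Uqcrh was at 179.9, 180.1, 185 and 191 CPM in WT1 to WT4 and 202, 242, 199 and 171 CPM in KO1 to KO4. The WT libraries lay close together, KO2 was high and the library labelled KO4 was below all of WT, with a log2 fold change of 0.15 ± 0.10. The core protein gene Uqcrc1 and the Rieske iron-sulfur gene Uqcrfs1 had log2 fold changes of 0.10 ± 0.11 and 0.09 ± 0.09. Uqcr10, the small subunit with the most counts per kilobase in this complex, had 0.12 ± 0.12.

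Complex IV, cytochrome c oxidase, had 13 of 14 tested members with an estimate above 0. Cox6b1, a subunit facing the intermembrane space (chr7:30316286-30325576, minus strand, GRCm39), was at 165, 161, 206 and 198 CPM in WT1 to WT4 and 202, 237, 223 and 191 CPM in KO1 to KO4. KO2 and KO3 lay above all of WT, KO1 and the library labelled KO4 within it, and the log2 fold change was 0.23 ± 0.11 (unadjusted p = 0.0675). Cox5b, a zinc-binding subunit on the matrix side, was at 106, 94.9, 124 and 136 CPM in WT1 to WT4 and 124, 143, 138 and 131 CPM in KO1 to KO4. WT1 and WT2 were low, WT4 lay inside the KO range, and the log2 fold change was 0.22 ± 0.12 (unadjusted p = 0.084 in edgeR). By RSEM Cox5b was closer between groups, at 425 ± 29.4 TPM in WT and 434 ± 38.3 TPM in KO (SD).

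Cox4i1 was at 543, 424, 478 and 475 CPM in WT1 to WT4 and 538, 535, 501 and 399 CPM in KO1 to KO4. The highest value was in WT1 and the lowest in the library labelled KO4. Its log2 fold change was 0.04 ± 0.12. Cox5a, its neighbour in the enzyme, had 0.16 ± 0.11, and the X-linked Cox7b had 0.11 ± 0.08. Cox8a, the general form of the smallest nuclear subunit, had 0.07 ± 0.10.

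Cytochrome c oxidase also has forms known from single tissues, and in these cells they were very unequal. Cox6a2 (chr7:127804607-127805559, minus strand, GRCm39) was at 494, 502, 583 and 727 CPM in WT1 to WT4 and 618, 724, 692 and 502 CPM in KO1 to KO4. The groups overlapped across nearly their whole range, and the log2 fold change was 0.14 ± 0.15. On the TPM scale Cox6a2 made up 59.9% ± 3.28 of Cox6a1 plus Cox6a2 in WT and 61.2% ± 1.52 in KO (SD, n = 4 each), so the muscle form exceeded the widely expressed form in every library. The libraries ran from 57.5% to 64.7% in WT and from 59% to 62.4% in KO, so the KO shares lay within the range of WT (two-sided exact permutation test, p = 0.486, adjusted p = 0.971 over 5 shares). The smallest p this design allows is 0.0286, or 0.143 after adjustment for a share alone, so no single share could have passed the threshold. Of the Cox6a2 exons, 10.3% overlap those of Itgad, and the library kit does not mark strand, so part of the reads cannot be assigned with certainty.

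Cox6a2 also stands on the list of plasmacytoid dendritic cell markers used here. The 9 genes of that list summed to between 9882 and 15475 CPM in WT and between 11563 and 13214 CPM in KO. WT4 had both the highest sum and the highest Cox6a2 value, whereas KO2 nearly matched it in Cox6a2 with a sum of 12429 CPM. These sums include Cox6a2 itself. Siglech, a surface receptor of plasmacytoid dendritic cells, was at 2413 CPM in WT4 and 1120 CPM in KO2. Ly6d, of the same list, went the other way, at 4197 CPM in WT4 and 4905 CPM in KO2. In bulk RNA, fewer cells of a type and less RNA per cell cannot be told apart, and the part of such cells in the Cox6a2 level was not tested.

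Cox6b2, known from testis, was at 11.6 ± 2.39 CPM in WT and 13.8 ± 4.41 CPM in KO (SD, n = 4 each; log2 fold change 0.26 ± 0.24). It made up 6.44% ± 1.62 of Cox6b1 plus Cox6b2 TPM in WT and 7.14% ± 1.46 in KO (two-sided exact permutation test, p = 0.543, adjusted p = 0.971). Cox7a1, the muscle partner of Cox7a2, had 0.631 ± 0.217 CPM in WT and 0.596 ± 0.328 CPM in KO and at most 37 counts in a library. Its general counterpart Cox7a2 was at 122 ± 7.53 and 127 ± 12.1 CPM.

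The remaining tissue forms were at or near 0. Cox4i2, the form known from lung, had 5 to 18 counts per library. Ndufa4l2, known as a hypoxia-induced relative of Ndufa4, had at most 6 counts, and Cox8b and Cox8c at most 2. Cox7b2 had 0 counts in all 8 libraries, which allows between 0.0428 and 0.0926 CPM in a library (3 counts of its TMM-scaled total, counting error only). The second Atp5o identifier also had 0 counts. These 6 identifiers were the members below the count filter.

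**Figure D5:**
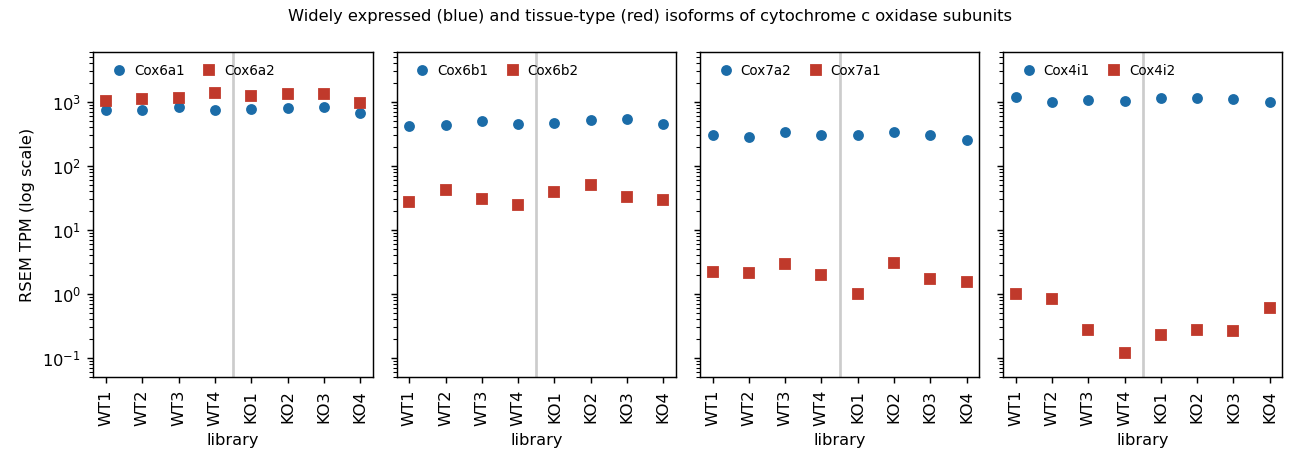
RSEM TPM on a log scale in each of the 8 libraries for the widely expressed form (blue circles) and the tissue form (red squares) of 4 subunits of cytochrome c oxidase. Cox6a2 (970.3 to 1358 TPM) lies above Cox6a1 (673 to 832 TPM) in every library, while Cox6b2, Cox7a1 and Cox4i2 lie far below their partners.

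Complex V, the ATP synthase, had 14 of 17 tested members with an estimate above 0. Atp5c1, the gamma subunit of the rotating central stalk (chr2:10060827-10085321, minus strand, GRCm39), was at 408, 357, 423 and 468 CPM in WT1 to WT4 and 456, 457, 494 and 453 CPM in KO1 to KO4. WT2 was low, WT4 lay between KO3 and the other KO libraries, and the log2 fold change was 0.17 ± 0.10. Atp5f1, subunit b of the peripheral stalk, had 0.10 ± 0.08.

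The genes of the catalytic head had estimates near 0. Atp5b (chr10:127919142-127926260, plus strand, GRCm39) was at 1145, 1263, 1156 and 1136 CPM in WT1 to WT4 and 1155, 1206, 1133 and 1060.2 CPM in KO1 to KO4. WT2, low for most members, was here the highest library, the groups overlapped, and the log2 fold change was -0.05 ± 0.09. Atp5a1, the alpha subunit, was at 881 ± 52.7 CPM in WT and 888 ± 76.2 CPM in KO (SD, n = 4 each; log2 fold change 0.01 ± 0.09). In WT2 it was at 951 CPM, again above the other WT libraries.

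The c ring of ATP synthase is built from 1 mature protein that 3 genes encode. On the TPM scale Atp5g1, Atp5g2 and Atp5g3 supplied 36%, 29.2% and 34.8% of their sum in WT and 36.1%, 29.4% and 34.5% in KO. The differences of KO minus WT were 0.114, 0.196 and -0.31 percentage points (two-sided exact permutation tests, p = 0.971, 0.886 and 0.771, adjusted p = 0.971 for each), with the same lower limit on the adjusted p. The 3 shares sum to the whole and are not independent. Their log2 fold changes were 0.08 ± 0.11, -0.00 ± 0.13 and 0.03 ± 0.09. Counts of Atp5g2 relative to RSEM were 0.398 times the ratio over all genes, and those of Atp5l, a subunit of the membrane part with a log2 fold change of -0.01 ± 0.12, were 0.198 times. Both counts are therefore uncertain through reads shared with other loci, as is Atp5o at 0.445 times, of whose exons 47.9% overlap other genes.

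The median within-group SD over members was 0.144 in log2 CPM, against 0.272 over all tested genes and 0.222 over protein-coding genes. It was 0.133 over mitochondrial ribosomal proteins, 0.114 over tricarboxylic acid cycle and pyruvate dehydrogenase genes and 0.107 over the carriers, so these lists varied as little as the members or less. The part of the members' high level in this was not tested.

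Genes that build or feed the complexes had estimates mostly above 0 too. Among assembly factors, the tested genes with an estimate above 0 were 12 of 15 for complex I, 4 of 4 for complex II, 4 of 6 for complex III, 16 of 21 for complex IV and 3 of 3 for ATP synthase. The lists' median log2 fold changes were 0.092, 0.128, 0.065, 0.081 and 0.054, and none of their genes passed the threshold. Sdhaf4, an assembly factor of complex II, had 0.28 ± 0.13 (unadjusted p = 0.0461 in edgeR). Cox20, a chaperone of the mitochondrially made Cox2 protein, had 0.56 ± 0.24 (unadjusted p = 0.0445 in edgeR). By counts Cox20 was at 4.47 CPM in WT and 6.58 CPM in KO, but by RSEM at 245 ± 17.2 TPM in WT and 259 ± 27.5 TPM in KO (SD, n = 4 each), so its count-based estimate is uncertain. Cytochrome c and cytochrome c1 (Cycs and Cyc1), which the symbol rule does not take in, had 0.13 ± 0.16 and 0.02 ± 0.08.

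The 13 mitochondrially encoded subunits, partners of the nuclear ones in the same enzymes, had 10 tested members, of which 2 had an estimate above 0, with a median of -0.167. Over the 7 of them with at least 10 CPM in WT the median was -0.08, a limit chosen after seeing the values. None passed the threshold. mt-Nd6, a complex I subunit, was at 129 ± 15.1 CPM in WT and 111 ± 7.79 CPM in KO, and mt-Co1, the catalytic subunit of complex IV, at 1240.1 ± 131 and 1409 ± 293 CPM (SD, n = 4 each). Counts and RSEM levels of the other 3 genes were far apart, so their count-based estimates are uncertain. By counts mt-Co2, mt-Atp6 and mt-Co3 were at 1.43, 2.44 and 1.99 CPM in WT, and by RSEM at 3338, 2236 and 1693 TPM over all libraries.

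Mitochondrial ribosomal proteins had a median of 0.078, with 66 of 77 tested members above 0, and tricarboxylic acid cycle and pyruvate dehydrogenase genes 0.052, with 13 of 17. For carriers of nucleotides and phosphate and outer membrane channels the median was 0.082, with 5 of 6 above 0. The mitochondrial ribosomal genes were lowest in WT2, as the subunits were, with a median deviation of -0.202. They were highest in KO3, at 0.107, where the subunits were highest in KO2. Cytosolic ribosomal proteins had a median of 0.056 with 69 of 81 above 0, but a different order of libraries: KO2 was highest at 0.357, WT2 was above 0 at 0.086, and the library labelled KO4 was lowest at -0.196. None of these genes passed the threshold.

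Known regulators of respiratory genes and mitochondrial DNA showed no common direction, with 9 of 15 above 0 and a median of 0.033. The NRF1 gene Nrf1 had 0.07 ± 0.08, Gabpa, whose product binds the ETS motif, 0.00 ± 0.11, Yy1 0.10 ± 0.11 and Tfam, which packages mitochondrial DNA, 0.03 ± 0.09. Ppargc1a, a coactivator of mitochondrial biogenesis, was low, at 2.56 ± 0.599 CPM in WT and 3.36 ± 0.357 CPM in KO (SD, n = 4 each; log2 fold change 0.39 ± 0.25). By RSEM it was at 1.26 ± 0.727 TPM in WT and 1.28 ± 0.442 TPM in KO, so its count-based estimate is uncertain.

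Marker genes of other cell types differed between libraries as well, and their part in the values above was not tested. Every marker of the 7 lists that was found had at least 1 count. The 22 erythroid genes found summed to between 702 and 1769 CPM in WT and between 749.6 and 1169.6 CPM in KO. Their median log2 fold change was -0.993, with a median within-group SD of 1.651. The list's median deviation ran from 2.458 in WT1 to -1.4 in WT4, and from 1.251 in KO1 to -1.395 in KO3. Much of the sum was Tfrc, at 629 CPM in WT4, where the list summed to 781 CPM. Tfrc had a log2 fold change of 0.14 ± 0.14. Sums for 12 neutrophil genes were 184 to 273 CPM in WT and 161 to 328 CPM in KO (median log2 fold change 1.081 over the 8 tested, median within-group SD 2.089). Monocyte and macrophage genes summed to 300.1 to 459 and 412 to 575 CPM, B and plasma cell genes to 1018 to 1625 and 1338 to 1514 CPM, and T cell genes to 450.4 to 527 and 519.8 to 647 CPM. The median log2 fold changes of these lists were 0.348, 0.261 and 0.337 over the 7, 13 and 11 tested genes. Their median within-group SDs were 0.564, 0.537 and 0.38. For the plasmacytoid dendritic cell list the median log2 fold change was -0.005. The 7 gate and early lymphoid genes summed to between 3289 and 4974 CPM in WT and between 3715 and 5695 CPM in KO, with a median log2 fold change of 0.054. In WT2, the low library for the members, and KO2, the high one, the gate list's median deviations were 0.426 and 0.423. They were 0.995 and 0.185 for erythroid, -0.315 and 0.038 for B and plasma cell, and -0.178 and -0.281 for T cell genes. Monocyte and macrophage genes had -0.442 and 0.354, neutrophil genes -2.194 and -1.509, and plasmacytoid dendritic cell genes -0.261 and -0.203.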

How the data were processed

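RNA-seq libraries of 4 WT and 4 KO samples were grouped by title and genotype label. The authors deposited whole-number gene counts, made with featureCounts 1.6.4 per the file headers, and RSEM expected counts and TPM, estimates that need not be whole. Per the submitters' processing notes, STAR 2.6.0a, Picard 2.19 and RSEM 1.3.1 were used with build mm10, while the annotation path in the count files' header names GRCm39, which is used here for coordinates. Header commands show no option for strand or multi-mapped reads, so reads shared between loci are left out of counts but not of RSEM values, and the kit does not mark strand.

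The counts were fitted over the whole table with edgeR 4.0.16 in R 4.3.3: filterByExpr, TMM, quasi-likelihood F test of KO against WT, no covariate, Benjamini-Hochberg adjustment, threshold 0.05. Errors of fold changes are SE. A prior count of 3 went into log2 CPM. A symbol was found for 97.1% of identifiers. Gene types came from GENCODE M21. Isoform shares were tested by exact permutation (two-sided, 70 assignments). Genes named are, per complex, the one with the most counts per kilobase, those with the smallest p in each direction, and fixed core subunits, tissue forms, c-subunit genes and X-linked members. Ndufv2, Sdhc, Uqcrc2, Atp5s, Atp5o, Siglech, mt-Co2, mt-Atp6, mt-Co3, Cycs, Cyc1, Nrf1, Gabpa, Yy1 and Tfam were named outside it, after their values were seen. The members and lists were chosen with earlier results of these data known. Steps were tested on simulated data.

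Alternatives changed the scaling (RLE factors; library size alone), the count filter (none; mean CPM of 1 or more), the tool (limma-voom from limma 3.58.1 with quality weights; DESeq2 1.42.0) or the input (rounded RSEM expected counts). Others added Xist as covariate or a block for the replicate number, left out each library, or left out WT4 and KO4 together. Ndufa4 was moved to complex IV, tissue forms and non-subunits (Cox7a2l and Atp5s) were left out, and a prior count of 1 was tried. Use of the 5 shallower libraries alone was chosen after seeing the data.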

Additional observations from a re-analysis of the deposited data

Results flagged for a closer look

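The groups of 4 libraries examined numbered 94, from 36 named members, 6 medians (all members and each enzyme) and 5 isoform shares in both genotypes. In 3 of them 1 library lay apart from the other 3 by more than 0.829 of the group's range; chance alone gives about 1 in 20 such groups. Atp5b was highest among WT in WT2, at 1263 CPM. Atp5c1 was highest among KO in KO3, at 494 CPM. Ndufv1 was lowest among WT in WT2, at 154 CPM.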

How the results depend on the processing

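No member passed the threshold under any of the 19 alternatives. The members' median log2 fold change was 0.046 to 0.150 with a library left out, and by complex I to V 0.045 to 0.150, 0.057 to 0.123, 0.050 to 0.163, 0.067 to 0.168 and 0.041 to 0.108. The low ends came without WT2 for the members as a whole and complexes I, III and V and without KO2 for II and IV. Without KO2 complex V was at 0.044, and without KO4 complexes II and V were at 0.123 and 0.108. RSEM expected counts gave 0.064, 0.068, 0.084, 0.065 and 0.021, and leaving out WT4 and KO4 together 0.176, 0.134, 0.190, 0.192 and 0.118; the cause was not tested. Members with an unadjusted p under 0.05 numbered 2, beside 1.97% of all genes. They numbered 0 with DESeq2 (1.88% of all genes), no count filter (2.78%) or without WT1 (1.55%), WT2 (1.01%), KO2 (1.73%) or KO3 (1.45%). The number was 1 with library size alone (2.02%), a mean CPM of at least 1 (1.91%), RSEM (1.89%), Xist (2.79%), the 5 shallower libraries (5.47%) or without KO1 (3.21%). It was 2 with RLE factors (1.99%) or without KO4 (5.9%), and 3 without WT3 (1.89%). It was 7 with limma-voom (5.45%), and 11 without WT4 (6.08%) or without WT4 and KO4 (8.75%).

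The replicate numbers were not used to pair libraries, since the correlation of same-numbered libraries' deviations was 0.362, 0.309, -0.0315 and 0.119 and not every library correlated best with its own number. With the replicate block the members' median was 0.105, with 2 at an unadjusted p under 0.05, beside 3.88% of all genes, and 0 past the threshold.

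Of 682 values of named members under an alternative, 57 had the other sign, all of genes with estimates from -0.08 to 0.10; the cause was not tested. By library size alone Atp5a1 was at -0.0217, Atp5g3 at -0.00731 and Ndufs1 at -0.024. With no count filter Atp5a1 was at -0.00163 and Ndufs1 at -0.00601, and with a mean CPM of at least 1 at -0.00204 and -0.00545. limma-voom gave Atp5g2 0.032, Ndufb4 0.0203 and Ndufs1 -0.0134. RSEM gave Atp5g2 0.0324, Atp5l 0.0193, Cox6a1 -0.00735, Cox7a2 -0.0447, Cox8a -0.0367 and Ndufa2 -0.00738. Xist as covariate gave Atp5g2 0.0543 and Atp5l 0.0053. Without WT4 and KO4, Atp5g2 was at 0.0909, Atp5l at 0.0142, Cox7a1 at 0.0101, Ndufb4 at 0.0818 and Ndufs1 at -0.0236. In the 5 shallower libraries Atp5b was at 0.0183, Atp5g2 at 0.180, Ndufa4 at -0.000199, Ndufb4 at 0.0118 and Ndufs1 at -0.0167. With a library left out, ranges were -0.0413 to 0.060 for Atp5a1, -0.0937 to 0.108 for Atp5g2, -0.0266 to 0.0755 for Atp5g3, -0.0917 to 0.0445 for Atp5l, -0.0227 to 0.129 for Cox4i1, -0.0109 to 0.0993 for Cox6a1, -0.526 to 0.152 for Cox7a1, -0.00231 to 0.106 for Cox7a2, -0.000679 to 0.166 for Ndufa2, -0.111 to 0.132 for Ndufb4, -0.00831 to 0.0221 for Ndufs1, -0.00815 to 0.153 for Sdhb and -0.000134 to 0.160 for Uqcrc1.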
